A study of Bos taurus with 16 samples.

Results

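The endometrial DNA methylomes were searched for the CpG sites that differed most from library to library. A variable site was defined as an autosomal site, on chromosomes 1 to 29, at which the highest and the lowest methylation level over the 16 libraries lay 70 percentage points or more apart. Of 189036 autosomal sites, 1118 (0.591%) were chosen by this rule, out of 199395 sites in the whole table, and every autosome held at least 7 of them. Because the sites were chosen on their spread, the width of that spread is a description and not a result. Some ranges were tied at the threshold: 17 of the variable sites lay within 0.0001 percentage points of it and 18 other sites fell below it by no more than that. Sites such as chr25:27413669, from 30% to 100%, were thus left out only by the last stored digits. The narrowest range clearly inside was 70.002 points and the widest clearly outside was 69.981 points.

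All libraries were reduced representation bisulfite sequencing (RRBS) libraries of DNA from endometrial cells, which had been brushed from the uterus of postpartum dairy cows 4 to 8 h after artificial insemination at a heat on days 50 to 64 after calving. From day 12 after calving the cows had received either the control diet (CON) or rumen-protected methionine each day (RPM, groups MET), and methionine feeds the pool of S-adenosylmethionine, the methyl donor of DNA methylation. They were classed afterwards by whether that insemination resulted in pregnancy (P) or in no pregnancy (noP), which gave CON_P, CON_noP, MET_P and MET_noP with 4 libraries each. DNA had been isolated from more brush samples than there are libraries and the number of cows behind a library is not given in the sources used here, so the spread between libraries may not be that between single cows. Libraries are called by the numbers of the deposited table. Values of a group are given below in the order S14, S18, S26 and S30 for CON_P, S12, S16, S24 and S28 for CON_noP, S15, S19, S27 and S31 for MET_P, and S13, S17, S25 and S29 for MET_noP. The mean level over all autosomal sites ranged only from 62.7% to 66.2% between libraries. The read depth at each site is unknown, since the values are percentages, and no interval for counting error is given for a single value.

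In mammalian cells methyl groups are placed on the cytosine of CpG dinucleotides, and neighbouring CpG sites of a molecule tend to carry the same state. Most CpG sites of the genome outside of CpG islands are methylated and most sites inside active CpG islands are not. The level at a site in a bulk sample is the share of its DNA copies that carry the mark, so an intermediate level arises where cell types, alleles or single cells differ. Brushed endometrium can hold luminal and glandular epithelium, stromal cells and leukocytes, and the make-up of these samples is not given. In such samples a shift in the mix of cells and a shift of methylation within the cells cannot be told apart. Bisulfite sequencing reads a T in the DNA of a cow at the place of a C of the reference as an unmethylated C, and genotypes of the cows were not used here.

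The variable sites were mainly sites of intermediate methylation. Their mean level over the libraries had a median of 56.1% (22.8% to 91.2%), against 80% for all autosomal sites, and 760 of them (68%) had a mean from 40% to 70%, where only 13.7% of the autosomal sites lay. Of all sites with such a mean, 2.93% were variable sites, while none of the sites with a mean under 20% and 4 of the 72118 sites with a mean of 90% or more were. A site near 0% or 100% on average has less room for a wide range, so this order is in part set by the rule. Among the single values of the variable sites, 72% lay between 20% and 80%, against 31.9% over all autosomal sites. The range had a median of 75.1 points and reached 98.4 points, with 289 sites at 80 points or more, 52 at 90 points or more and 11 at 95 points or more. At 327 sites (29.3%) at least 1 library was fully methylated, and at 389 sites at least 1 library was at 10% or less.

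At several sites of widest range, libraries of the same group lay at opposite ends. The widest was a site without an annotated gene at chr5:108054176, with 37.9%, 27.3%, 100% and 57.7% in the CON_P libraries, 67.4%, 69%, 62.5% and 64.7% in those of CON_noP, 1.56%, 65.6%, 94.6% and 94.7% in MET_P and 21.2%, 48.6%, 52.4% and 69.1% in MET_noP. Next came a site in TMEM237, which encodes a protein of the ciliary transition zone, at chr2:90185399. Its values were 2.33%, 96.2%, 55.6% and 100% in the CON_P libraries, 48.6%, 48.4%, 48.6% and 58.1% in those of CON_noP, 60%, 76.9%, 96.2% and 71.5% in MET_P and 60.7%, 66.7%, 59.4% and 64.1% in MET_noP. CON_P thus held both the lowest and the highest library of the TMEM237 site, while the 4 CON_noP libraries lay between 48.4% and 58.1%. At the site in TEP1 (chr10:26743816), which encodes a telomerase-associated protein, the levels were 55.2%, 3.03%, 60.9% and 54.2% in the CON_P libraries, 67.5%, 47.1%, 27.3% and 63.3% in those of CON_noP, 100%, 20%, 63.4% and 30.5% in MET_P and 6.10%, 43.3%, 79.3% and 29.9% in MET_noP. Every group of the TEP1 site spread over more than 40 points. FAM53B (chr26:44276845) ranged from 3.51% in S31 of MET_P to 100% in S18 of CON_P, with 27%, 100%, 50% and 53.7% in CON_P and 30.8%, 64.9%, 90.4% and 3.51% in MET_P.

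At 2 of the other sites among the 10 widest, those in TASP1 and ZNF703, the widest gap set off a single library and took up 61.4% and 61.1% of the range. The kinase gene STK32C (chr26:51864153) was at 86.2%, 73.3%, 100% and 3.85% in CON_P, so that 1 library of that group was nearly unmethylated and another fully methylated, and at 66.7%, 75%, 83.3% and 81% in CON_noP. TASP1 (chr13:7070852), whose product cleaves MLL histone methyltransferases, was at 98%, 4.76%, 84.6% and 100% in CON_P and no lower than 63.3% in any other library. A site without a gene at chr8:112413517 was at 71.4%, 72.5%, 25% and 69.6% in MET_P and 3.57%, 25%, 11.1% and 13.2% in MET_noP. MET_P was above MET_noP there in all libraries but S27, which tied with the highest MET_noP library. In ZNF703, a transcriptional repressor, the site chr27:32980531 was at 100% in S25 of MET_noP alone, and the other 15 libraries lay from 4.55% to 41.7%. The sites chr11:2204036 and chr21:33026011, both without a gene, ranged from 3.23% to 100% and from 1.11% to 96.8%.

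**Figure D1:**
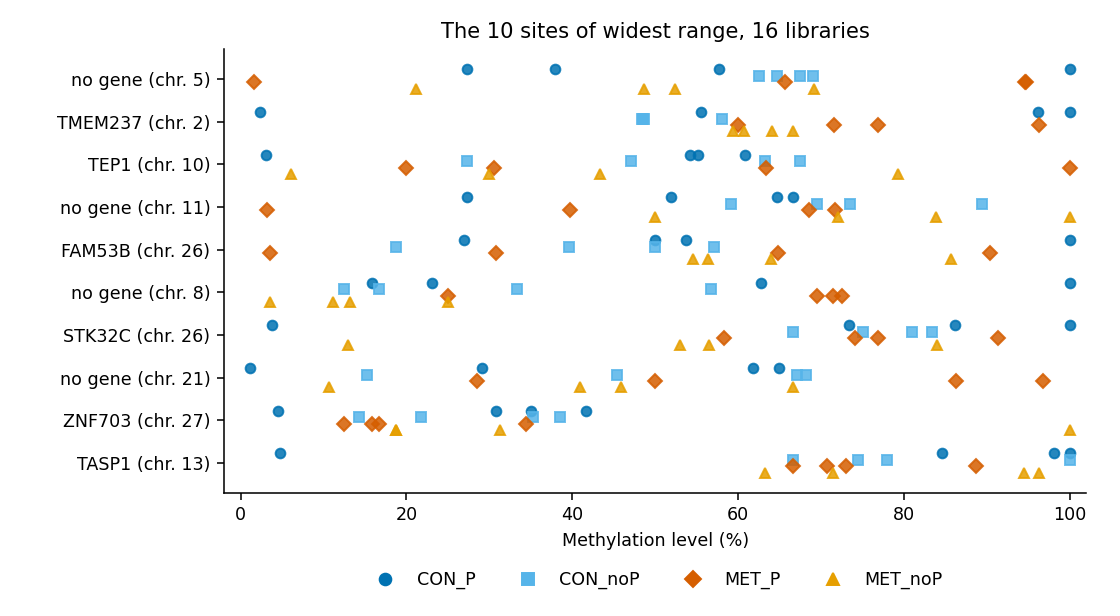
Methylation level in percent (x axis) of the 10 variable sites of widest range (y axis, gene or no gene and chromosome), with 1 symbol per library and colour and shape giving the group. The values of a group lie far apart at most sites, and a single library is set off from all others at the ZNF703 site, at 100%, and at the TASP1 site, at 4.76%.

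Most variable sites were graded rather than step-like, and this did not set them apart from autosomal sites at large. A site was called step-like where the widest gap between libraries ranked by level took up at least 50% of the range, and 63 variable sites (5.64%) did, against 5.57% of all autosomal sites. In all 63 the gap set off a single library, which was the highest in 27 and the lowest in 36. Under this cut-off none had a step with at least 2 libraries on either side. Just under it, in DENND3 (chr14:2739443), S30, S19 and S25 lay at 13.6%, 19.2% and 5.56%. The gap above these libraries was 46.4 points, 49.1% of the range. In STK32C (chr26:51864153), S30 and S13 lay at 3.85% and 12.9% below a gap of 40 points, 41.6% of the range. Both sites were counted among the 1055 graded ones. The widest gap of a variable site took up a median of 26.6% of its range (26.4% over all autosomal sites). Where the widest gap did fall between groups of 4 to 12 libraries, at 129 sites, it was at most 30 points. That gap, 38.3% of the range, was at a site in EIPR1, which encodes an interactor of endosomal tethering complexes (chr8:111099512), with 94.6%, 87.5%, 33.3% and 96.5% in the CON_P libraries, 50%, 43.5%, 37.1% and 80% in those of CON_noP, 100%, 21.7%, 94.9% and 93.3% in MET_P and 96.8%, 91.7%, 81% and 85.5% in MET_noP. The 11 libraries at 80% or more stood apart there from the 5 libraries at 50% or less, and the 5 came from CON_P, CON_noP and MET_P. Leaving aside the highest and the lowest library, the range was still 70 points or more at 86 sites and under 50 points at 507.

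The steps of greatest height were in PTPRN2, a receptor-type phosphatase of secretory granules, and in CCDC88C, a regulator of Wnt signalling (chosen here after their values were seen). At chr4:118897637 in PTPRN2 the values were 88.9%, 11.7%, 98% and 89.4% in MET_P, and the 12 libraries of the other groups lay from 80% to 97.4%. The neighbouring position chr4:118897638, which is 1 bp away, as the strands of a CpG are, was at 100%, 21.4%, 92.6% and 100% in MET_P. S19 was the low library at both positions. At chr21:56065506 in CCDC88C, S27 of MET_P was at 11.5% and the other libraries lay from 75% to 100%. The nearest site, 5 bp away, had a range of 17.6 points, so the low value of S27 did not extend to it.

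Some variable sites moved with their close neighbours, some moved alone, and many lay between. Another measured site lay within 100 bp of 1082 variable sites (96.8%, against 90.2% of all autosomal sites), with a median of 4 such sites for both. Over the 16 libraries, Pearson's r with the nearest of them had a median of 0.58 (quartiles 0.14 and 0.88), against 0.34 for all autosomal sites. These correlations are across libraries at single sites and neighbours partly share reads, so they are given as a description. For 381 variable sites r with the nearest neighbour was 0.8 or more, for 304 it was under 0.2 and for 397 it lay between. Moving together became less frequent with the width of the range. Of the sites with a range of 70 to 75 points, 41.9% had an r of 0.8 or more and 18.7% an r under 0.2, and of the sites with a range of 90 points or more these shares were 9.80% and 60.8%. The nearest neighbour had a median range of 55.8 points in the first class and of 15.6 points in the last.

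A stable neighbour was nearly always a methylated one. The nearest site had a range under 20 points at 265 variable sites, and at 262 of these its mean level was 80% or more. At none was it 20% or less. Over all autosomes, 72118 sites had a mean of 90% or more (median range 11.8 points) and 15213 a mean under 10% (12.7 points). The share of methylated sites among all stable sites is not given here, so this need not be particular to the variable sites. The median level of these stable neighbours was 96.2%, beside a median of 63.9% for the variable sites next to them. Where the nearest neighbour moved with the variable site (r of 0.8 or more), the median levels were 51.8% for the variable sites and 51.1% for the neighbours. Of the 381 sites that moved with a neighbour 280 (73.5%) had an annotated gene, and of the 265 beside a stable neighbour 176 (66.4%) had. TMEM237 is a case of the second kind. All 5 measured sites within 66 bp of chr2:90185399 stayed between 85.7% and 100% in every library, and the nearest, 6 bp away, had a range of 5.56 points. Of the 10 widest sites, 7 others had a nearest neighbour with a range of 25 points or less, namely chr5:108054176, TEP1, FAM53B, chr8:112413517, STK32C, chr21:33026011 and TASP1. Exceptions were ZNF703 and chr11:2204036. For FAM53B the picture differed by side. The 3 sites 14 to 19 bp further along the chromosome were at 81.8% or more in every library, and the 2 sites before it had ranges of 47.4 and 64.2 points.

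For 123 variable sites a position 1 bp away, as the other strand of a CpG is, was measured as well. Its r with the variable site had a median of 0.60 and was as low as -0.48, and the partner was itself a variable site in 25 cases. Pairs of variable sites within 100 bp of each other had a median r of 0.92 (532 pairs). The median was 0.77 for 54 pairs at over 100 bp to 1 kb, 0.33 for 55 pairs at 1 to 10 kb and 0.11 for 404 pairs at 10 to 100 kb. Beyond 1 Mb and between chromosomes it was 0.02. All these pairs share the same 16 libraries. Clusters with many sites, such as that of PES1 with 15, give many of the pairs within 100 bp, so these pairs are not separate loci.

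**Figure D2:**
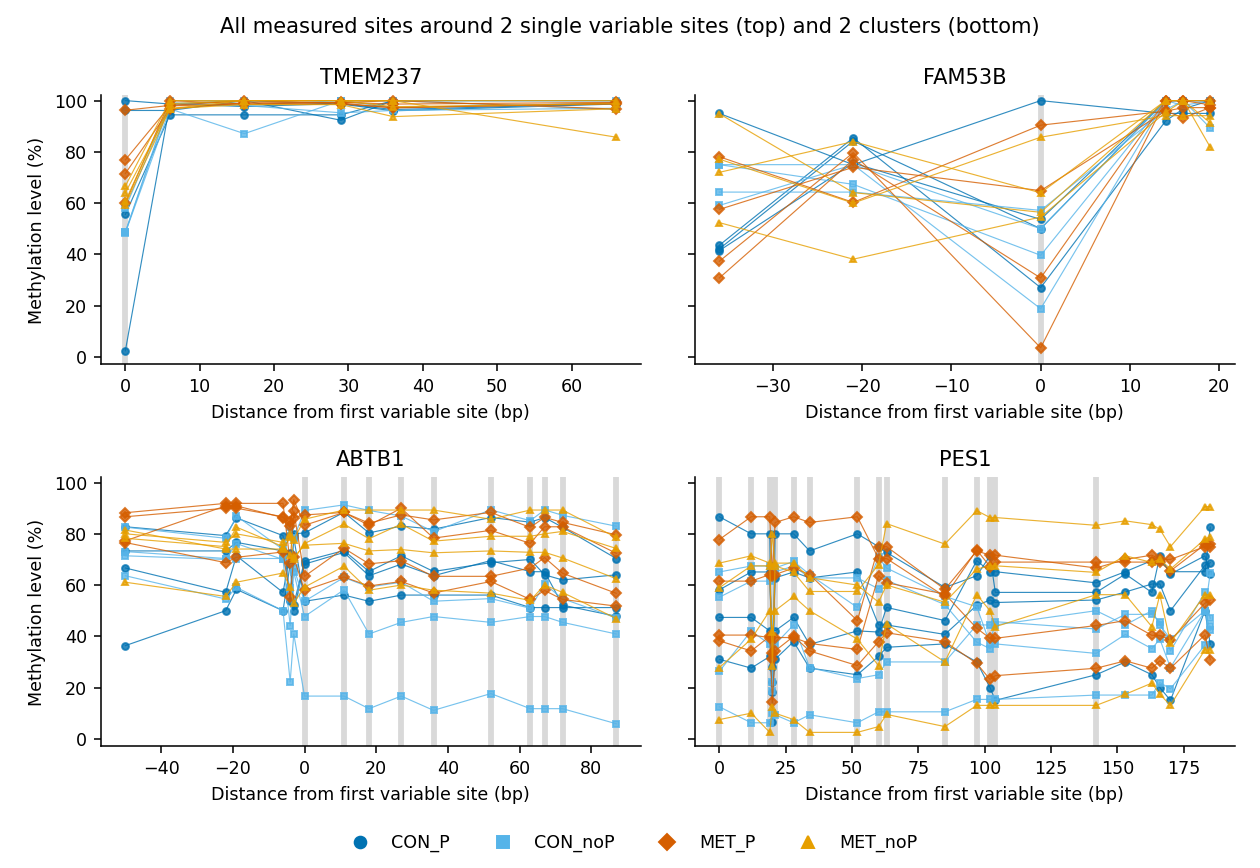
Methylation level in percent (y axis) of all measured sites around the variable sites of TMEM237 and FAM53B and around the clusters of ABTB1 and PES1, against the distance in bp from the first variable site (x axis). Lines join the values of 1 library, colour and shape give the group, and grey bars mark variable sites. The TMEM237 site spans 2.33% to 100% next to sites that stay at 85.7% or more, and the variable sites of ABTB1 and PES1 move together with a median r of 0.98 and 0.80, with a break at chr17:69561722 in PES1, where S26 drops from 80% to 6.67% and is back at 80% at the next position.

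**Figure D3:**
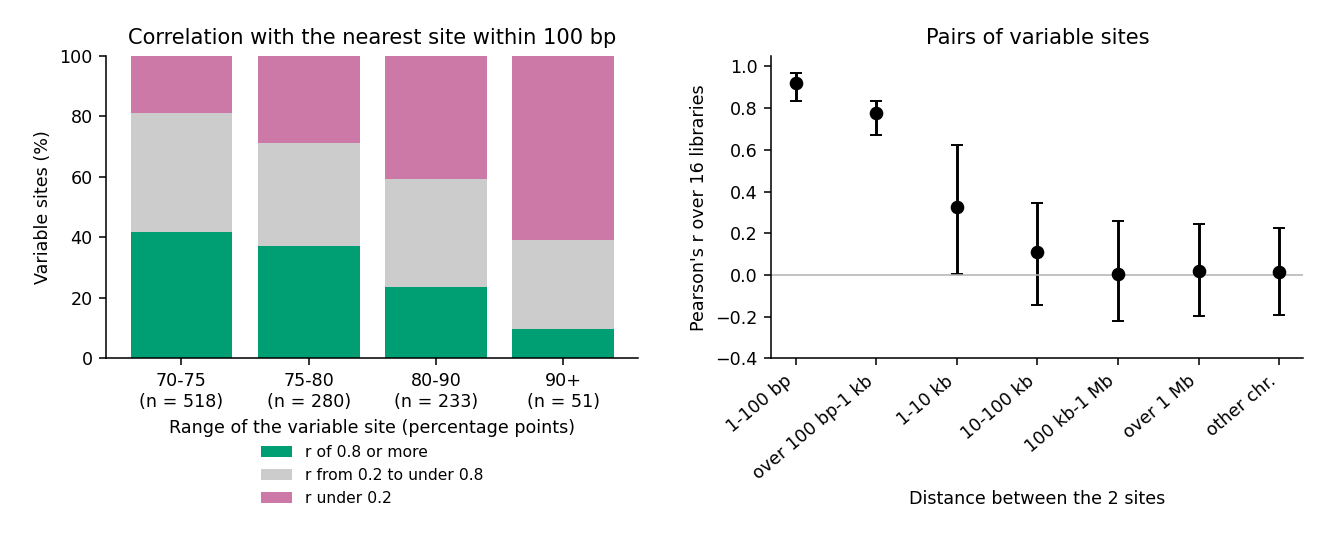
Left, share of the variable sites in percent (y axis) by their correlation with the nearest site within 100 bp, in classes of the range (x axis, percentage points, n with a neighbour). Right, median Pearson's r over 16 libraries (y axis, bars from the lower to the upper quartile) for pairs of variable sites by distance (x axis). The share with r under 0.2 goes from 18.7% to 60.8% with the range, and the median r goes from 0.92 within 100 bp to 0.02 between chromosomes. Clusters with many sites give many of the pairs within 100 bp.

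Variable sites gathered in clusters, defined as runs in which each was at most 100 bp from the next. With another variable site within 100 bp were 391 (35%), in 139 clusters, and 727 stood alone. There were 53 clusters of 3 or more sites, with 219 sites and a median r within the cluster of 0.92. Sites of a cluster can lie on the same fragments and are not independent of each other. The 8 clusters with the most sites are described here by the mean of their variable sites in each library. The largest was in PES1, a gene of ribosome biogenesis, where all 15 sites measured from chr17:69561702 to chr17:69561844 were variable. They had a median r of 0.80 and were 15 of the 31 sites measured in the gene. Their means lay from 44% to 53%, except chr17:69561722 at 29.5%. The means were 54.4%, 48.5%, 68.2% and 28.4% in the libraries of CON_P, 10.7%, 35.2%, 52.9% and 56% in those of CON_noP, 63.4%, 75.5%, 32.4% and 43.5% in MET_P and 62%, 44.2%, 8.41% and 73% in MET_noP. S25 of MET_noP was the lowest and S19 of MET_P the highest, and only 7.91% of the sum of squares lay between the groups. Low and high libraries occurred in each of the 4 groups of PES1.

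The cluster in FHDC1, which encodes a formin-related protein that acts on actin and microtubules, held 11 variable sites of 33 measured from chr17:4673479 to chr17:4673596. Its means were 40.6%, 46.2%, 25% and 71% in the libraries of CON_P, 51.8%, 21.7%, 56.9% and 55.1% in those of CON_noP, 74.5%, 77%, 81.9% and 61.9% in MET_P and 60.9%, 82%, 32.5% and 60.6% in MET_noP. The group means were 73.8% ± 8.54 (SD, n = 4) in MET_P, 59% ± 20.3 in MET_noP, 46.4% ± 16.6 in CON_noP and 45.7% ± 19.1 in CON_P, and 38.4% of the sum of squares lay between them. All MET_P libraries were above 3 of the 4 CON_P libraries and above all CON_noP libraries, but S30 of CON_P, at 71%, was above S31 of MET_P. In ABTB1, which encodes an ankyrin repeat and BTB domain protein, all 10 sites measured from chr22:59834978 to chr22:59835065 were variable and moved together with a median r of 0.98. Their means were 82.4%, 67.4%, 63.6% and 53.7% in the libraries of CON_P, 87.1%, 13.2%, 55.9% and 46.7% in those of CON_noP, 85.4%, 66.1%, 81.9% and 57.9% in MET_P and 79.2%, 87.5%, 57.8% and 72.4% in MET_noP. S16 of CON_noP was the single low library. Without it the means spread over 40.8 points in place of 74.3. S16 was at 50% or more at the 4 sites from 50 to 6 bp before the cluster, at 22.2% and 40.9% at the sites 4 and 3 bp before it and at 17.6% or less within it.

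A cluster of 6 sites without a gene (chr6:116907335-116907372) had means of 51.2%, 38.1%, 28.9% and 18.6% in the libraries of CON_P, 15%, 30.3%, 42.5% and 46.8% in those of CON_noP, 25%, 24.1%, 18.6% and 34.9% in MET_P and 20.9%, 25.3%, 89.3% and 54% in MET_noP. S25 of MET_noP stood apart at 89.3%, and without it the means spread over 39 points in place of 74.3. On chromosome 27, 5 variable sites without a gene (chr27:13864519-13864556) had means of 33.7% ± 18.3 in CON_noP, 60.1% ± 21.8 in CON_P, 59.6% ± 10.5 in MET_P and 54.8% ± 15.6 in MET_noP (SD, n = 4). The libraries of these groups overlapped. In ATP8B1, a phospholipid flippase, the 5 sites from chr24:56869217 to chr24:56869283 had means of 43.3%, 50.9%, 11.6% and 53.2% in the libraries of CON_P, 72.4%, 29.5%, 33.7% and 31.8% in those of CON_noP, 84.5%, 58%, 80.9% and 55.4% in MET_P and 71.3%, 67.4%, 45.5% and 64.1% in MET_noP. All MET_P libraries of ATP8B1 were above all CON_P libraries, the lowest at 55.4% and the highest CON_P library at 53.2%.

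In the gene ENSBTAG00000048756 the 5 sites from chr12:86639629 to chr12:86639692 were at 53%, 45.5%, 20.4% and 58.2% in the libraries of CON_P, 58.8%, 25.7%, 78.4% and 20.2% in those of CON_noP, 56.9%, 60.1%, 86.1% and 39.5% in MET_P and 43.1%, 46.7%, 82% and 76.1% in MET_noP. Each group held libraries on both sides of 53.2%, the mean over all libraries, and 16.4% of the sum of squares lay between groups. In C10H15orf48 the 5 sites from chr10:65000781 to chr10:65000823 were variable, of 7 sites measured in the gene. Their means were 8.89%, 34.5%, 84.3% and 46.1% in the libraries of CON_P, 30%, 51.7%, 25.5% and 15.4% in those of CON_noP, 47.5%, 41.2%, 20.6% and 28.4% in MET_P and 38.2%, 43.2%, 25.3% and 49.2% in MET_noP. CON_P held both the lowest and the highest library there, S14 and S26, which lay 75.4 points apart.

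Another 4 clusters also had 5 sites and are given beside these because they tie with the last of the 8. In SEPT9, a septin of the cytoskeleton (chr19:54645814-54645918), the means were 46.8%, 39.4%, 35.2% and 49.9% in the libraries of CON_P, 50.3%, 17.2%, 53.3% and 34.2% in those of CON_noP, 73.4%, 74.7%, 87.8% and 56.5% in MET_P and 53.6%, 71%, 12% and 50.8% in MET_noP. The lowest MET_P library of SEPT9, at 56.5%, was above all libraries of CON_P and CON_noP, and 46.5% of the sum of squares lay between groups. In RALGPS1, an exchange factor for Ral GTPases (chr11:97939154-97939195), S25 was at 88.2% and the other libraries lay from 11.8% to 55.5%. In PLXND1, a semaphorin receptor (chr22:56169923-56169955), MET_noP held both ends, S17 at 5% and S25 at 76.7%. In ZNF703 (chr27:32980509-32980531) S25 was at 100% in all 5 sites, and the next library was at 50%. Without S25 the means of ZNF703 spread over 39.9 points in place of 89.9. S25 was the highest library in 4 of the 12 clusters and the lowest in PES1 and SEPT9.

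**Figure D4:**
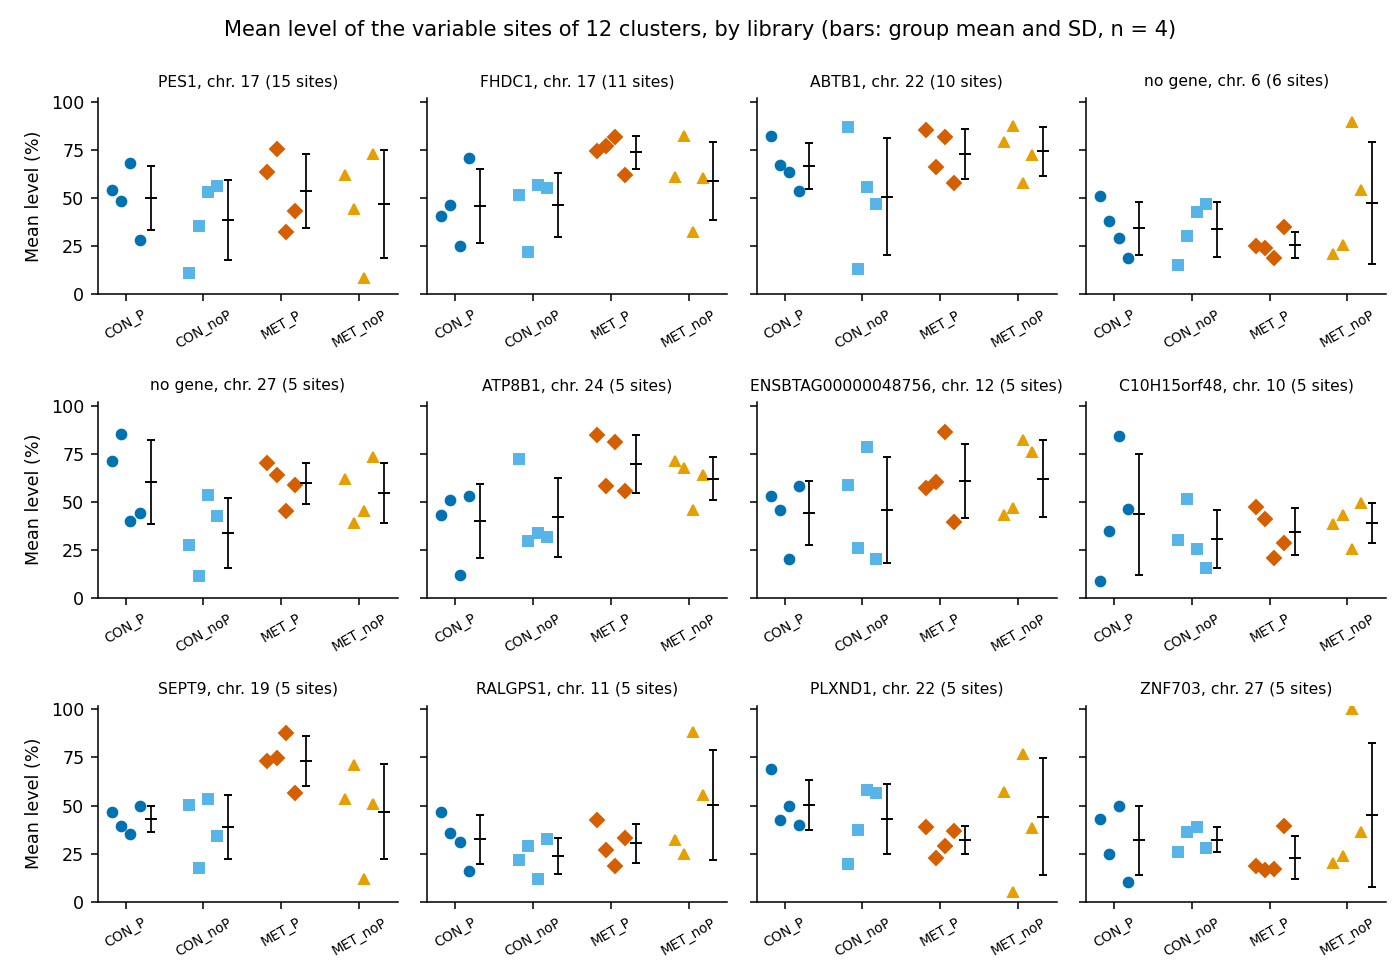
Mean methylation level in percent (y axis) of the variable sites of the 12 clusters with 5 or more sites, with 1 symbol per library in each group (x axis) and the group mean with its SD (n = 4) beside it. Libraries of a group lie far apart in most panels, and S25 of MET_noP, at 89.3%, 88.2% and 100%, is set off in the cluster of chromosome 6, RALGPS1 and ZNF703.

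A gene was annotated at 735 variable sites (65.7%, against 64.5% of all autosomal sites), in 474 genes. Of these genes 350 had 1 variable site, 57 had at least 3 and 16 at least 5. The 10 genes with the most were PES1 (15 of 31 measured sites), FHDC1 (13 of 65), ABTB1 (10 of 18), GMDS (8 of 410), SEPT9 (7 of 105), IFT140 (6 of 78), PTPRN2 (6 of 784), C10H15orf48 (5 of 7), ENSBTAG00000048756 (5 of 29) and ATP8B1 (5 of 34). In PES1, ABTB1, C10H15orf48, ENSBTAG00000048756 and ATP8B1 all the variable sites lay in 1 cluster. In GMDS, which starts the synthesis of GDP-fucose, the 8 sites were spread over 153135 bp, and in PTPRN2 the 6 sites were spread over 329312 bp. IFT140, a component of intraflagellar transport, had its 6 sites within 1225 bp. Chromosomes 27 (0.946% of sites) and 17 (0.912%) had the highest share of variable sites and chromosome 28 the lowest (0.352%). Of the variable sites 43.8% lay within 5 Mb of the last measured site of a chromosome, against 35.6% of all autosomal sites.

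Most of the spread of the variable sites lay within the groups, as it did for other sites. With 4 groups of 4 libraries most degrees of freedom lie within groups, so this holds without any difference between groups as well. The share of a site's sum of squares that lay between the 4 groups had a median of 19.6%, against 18.1% for all autosomal sites. It was above 20% at 547 variable sites (48.9%), against 44.5% of the autosomal sites, and above 50% at 33 (2.95%), against 3.33%. These shares were not tested against each other. The pooled SD within groups had a median of 20.1 points, against 5.93 points, and the highest and the lowest group mean were a median of 22.3 points apart, against 5.98 points. At 454 variable sites a single group spanned 70 points or more, and at 1020 (91.2%) a single group spanned at least 50 points, against 3.64% of the autosomal sites. Such wide spans inside a group are in part set by the rule that chose the sites. Of the 972 sites with 1 highest and 1 lowest library, both were in the same group at 187 (19.2%), against 20.8% of the autosomal sites. On average a pair of libraries of the same group differed by 23 points at a variable site and a pair of different groups by 23.4 points. Library numbers run in sets of 4 consecutive numbers, each with 1 library of each group, and pairs within such a set differed by 23.4 points and pairs across sets by 23.3 points.

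Mean levels over the variable sites were 53.7% ± 3.55 in CON_noP, 56.3% ± 3.40 in CON_P, 57.6% ± 1.37 in MET_P and 58.2% ± 1.25 in MET_noP (SD, n = 4). The site-level SD within a group had a median of 21.8 points in CON_P, 18.5 in MET_noP, 16.1 in CON_noP and 15.9 in MET_P. A range of 70 points or more occurred inside CON_P at 196 sites, inside MET_P at 125, inside MET_noP at 104 and inside CON_noP at 69. Some libraries were at the ends more often than others. S18 and S26 of CON_P were the highest or lowest library at 243 sites each (21.7%), S25 of MET_noP at 231, S15 of MET_P at 222 and S16 of CON_noP at 219, and S28 of CON_noP at 62 (5.55%). S16 was the lowest library at 165 sites and had the lowest mean over the variable sites, 49.2%. The same 5 libraries deviated by 5.34 to 6.76 points on average from the mean of all libraries over all autosomal sites, where the 16 libraries ranged from 4.19 to 6.76 points. The part of depth or of library preparation in this was not tested. In a principal component analysis of the variable sites the first component held 17.4% of the variance and the second 13%. Each group had libraries on both sides of the first component, but most CON libraries were positive and most MET libraries negative. The scores were 0.21, 0.012, 0.50 and -0.14 in CON_P and -0.17, 0.40, 0.047 and 0.14 in CON_noP. They were -0.37, -0.19, -0.29 and 0.043 in MET_P and -0.20, -0.27, 0.32 and -0.049 in MET_noP. This lean by diet was not tested.

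**Figure D5:**
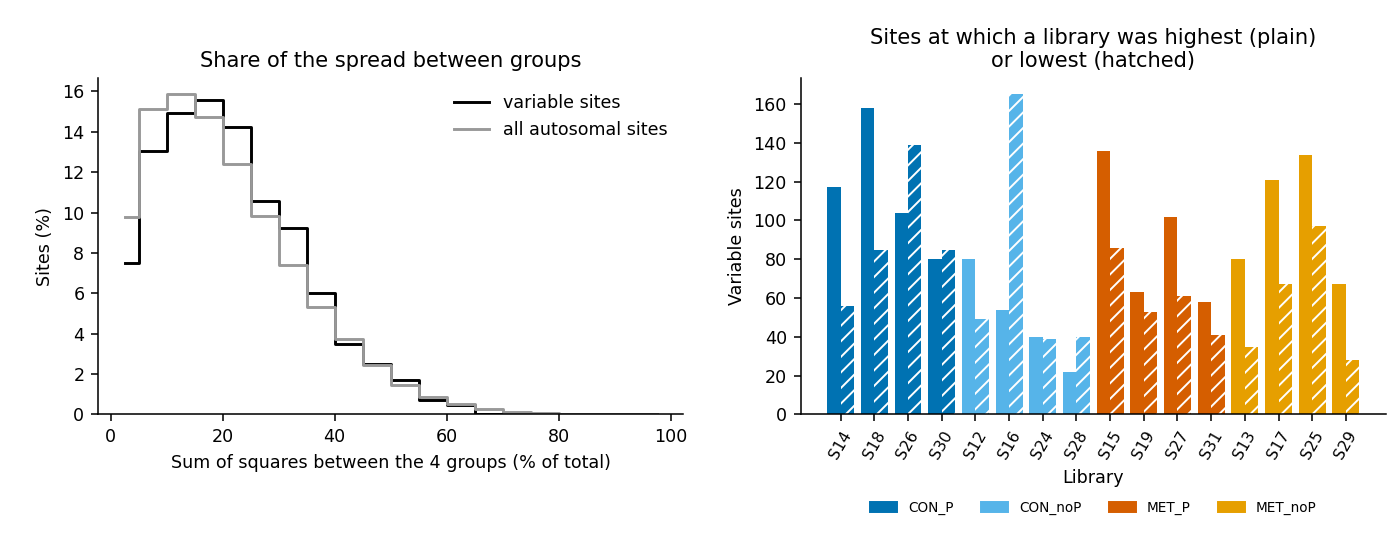
Left, distribution of the share of the sum of squares between the 4 groups (x axis, percent) for variable sites and for all autosomal sites (y axis, percent of sites). Right, number of variable sites (y axis) at which each library (x axis, coloured by group) was the highest or the lowest. The left curves nearly coincide, with medians of 19.6% and 18.1%, and S16 of CON_noP is the lowest library most often, at 165 sites.

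The 4 comparisons of the design asked which sites differ by pregnancy outcome within each diet and by diet within each outcome. For this, percentages were turned into M values (the methylated over the unmethylated percent, each plus 1, on the log2 scale) and tested with limma over all 199395 sites with Benjamini-Hochberg adjustment. No variable site passed an adjusted p of 0.05 in CON_P against CON_noP (0.0% of all sites), MET_P against MET_noP (0.0%), MET_P against CON_P (0.0%) or MET_noP against CON_noP (0.0%). None passed in the interaction of diet and outcome (2 of all sites, 0.001%) or in the F test of the 4 groups (2 of all sites, 0.001%). The lowest adjusted p of a variable site by limma was 0.222, 0.457, 0.326 and 0.241 in the 4 comparisons, 0.909 in the interaction and 0.645 in the F test. At an unadjusted p under 0.05 there were 56 (5.01%) in CON_P against CON_noP beside 3.93% of all sites, 103 (9.21%) in MET_P against MET_noP beside 5.12%, 125 (11.2%) in MET_P against CON_P beside 5.83% and 119 (10.6%) in MET_noP against CON_noP beside 5.13%. In the interaction there were 108 (9.66%) beside 5.25%, and in the F test 116 (10.4%) beside 4.89%. The variable sites were chosen on their range over the same libraries that were tested. Their shares beside those of all sites are therefore a description and not an enrichment. limma draws the SD of each site towards that of all sites, which lowered the median SD of the variable sites in CON_P against CON_noP from 1.56 to 1.34 M units. With a trend in that step, the counts at an unadjusted p under 0.05 were 71, 128, 159 and 158 in the 4 comparisons, 158 in the interaction and 192 in the F test.

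Counts of sites without overlap use no estimate of the spread. The 4 libraries of one group lay entirely above or below those of the other at 14 variable sites (1.25%, beside 1.99% of all sites) in CON_P against CON_noP, where 8 were higher in CON_P (0.716%, beside 1.22% of all sites) and 6 lower (0.537%, beside 0.77%). They did so at 37 (3.31%, beside 2.9%) in MET_P against MET_noP, where 20 were higher in MET_P (1.79%, beside 1.64%) and 17 lower (1.52%, beside 1.26%). In MET_P against CON_P it was 34 (3.04%, beside 3.09%), 27 of them higher in MET_P (2.42%, beside 1.92%) and 7 lower (0.626%, beside 1.17%). In MET_noP against CON_noP it was 40 (3.58%, beside 2.75%), 35 of them higher in MET_noP (3.13%, beside 1.85%) and 5 lower (0.447%, beside 0.903%). Over the variable sites MET_noP was on average 4.46 points above CON_noP, beside 1.29 points over all autosomal sites. S16, the CON_noP library with the lowest mean, is part of both values. The comparisons share libraries, so these counts are not independent of each other.

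Between CON_P and CON_noP, the lowest p was at a site in NUP210 (chr22:58500627), a nuclear pore membrane protein, with 100%, 96.9%, 100% and 96.7% in CON_P and 82.6%, 52.6%, 76.5% and 71.9% in CON_noP. The groups did not overlap, and CON_P was higher by 27.5 points on average and by 4.27 ± 0.70 (SE) M units (adjusted p = 0.222 by limma, 0.242 to 1.0 over the alternatives). The nearest site, 6 bp away, had a range of 13.3 points. The lowest library at the NUP210 site was S25 of MET_noP, at 28.6%, while S13, S17 and S29 of that group lay from 97.1% to 100%. Leaving aside the highest and the lowest library, the range of the NUP210 site was 47.4 points. MCM2 (chr22:59905868), a subunit of the replicative helicase, was at 94.9%, 100%, 92.3% and 73.3% in CON_P and 23.5%, 45.5%, 66.7% and 59% in CON_noP, and at 41.7%, 68.1%, 77.4% and 70.3% in MET_P and 84.8%, 100%, 70.8% and 77.8% in MET_noP. Its CON_P libraries lay higher by 41.5 points on average, and it had the lowest p of the interaction as well, with an adjusted p by limma of 0.909. RBM19 (chr17:60718681), a ribosome biogenesis factor, differed by -35.8 points, with 22.2%, 13%, 41.2% and 29.4% in CON_P and 68.8%, 63.2%, 75% and 42.1% in CON_noP. Sites without a gene at chr12:10974141 and chr6:115099436 differed by -47.2 and 40.5 points, CON_P minus CON_noP.

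Under RPM, VOPP1 (chr22:692881) was at 88.7%, 92.8%, 94.6% and 92.2% in MET_P and 73%, 61.1%, 62.1% and 24.3% in MET_noP. The difference was 37 points and 3.14 ± 0.64 (SE) M units (adjusted p = 0.457 by limma, 0.278 to 1.0 over the alternatives), and its nearest neighbour, 13 bp away, had a range of 8.33 points. TRAF3IP1 (chr3:117655845), which encodes a protein of intraflagellar transport, differed by -48 points, MET_P minus MET_noP, with 66.7%, 39.1%, 50% and 22.2% in MET_P and 100%, 70%, 100% and 100% in MET_noP. The next site in TRAF3IP1, 5 bp away, moved with it (r = 0.92), at 83.3%, 36.4%, 38.5% and 27.8% in MET_P and 100%, 66.7%, 100% and 66.7% in MET_noP, and its libraries overlapped. The MET_P libraries also lay below those of MET_noP at chr11:105527307 (-39.2 points) and chr29:46089943 (-34.9 points), both without a gene, and in ENSBTAG00000051431 (chr5:118337482, -35.6 points).

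Between MET_P and CON_P the lowest p was at a further site of FHDC1, chr17:4673810, which lies outside the cluster of that gene. It was at 21.4%, 27.3%, 13.6% and 36.4% in the CON_P libraries, 52.9%, 22.6%, 41.9% and 45.2% in those of CON_noP, 87%, 68.4%, 74.2% and 66.7% in MET_P and 46.2%, 55%, 20.8% and 58.5% in MET_noP. MET_P was above all other libraries there, by 49.4 points and 3.20 ± 0.55 (SE) M units against CON_P (adjusted p = 0.326 by limma, 0.224 to 0.863 over the alternatives). Of the sum of squares of this site 72.8% lay between groups, the highest share among the variable sites, and its r with the position 1 bp away was 0.60. A pair of sites without a gene, chr3:8528452 and chr3:8528604, had MET_P at 89.1%, 97.3%, 100% and 100% and 82.6%, 95.5%, 99% and 97.8% and CON_P at 56.9%, 53.6%, 73.3% and 26.7% and 54.8%, 35.7%, 66.7% and 14.3%. In HPCAL1 (chr11:87213988), a neuronal calcium sensor, CON_P was at 98%, 100%, 100% and 89.5% and MET_P at 71.8%, 84.6%, 26.9% and 74.5%, and at chr3:117472812 MET_P was higher by 40.7 points.

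Without pregnancy, the diets differed with the lowest p in THSD4 (chr10:18577853), which encodes an extracellular matrix protein that binds fibrillin. MET_noP was at 84.4%, 94.7%, 75% and 90% and CON_noP at 49.1%, 39.1%, 43.1% and 34.1%, a difference of 44.7 points and 3.22 ± 0.56 (SE) M units (adjusted p = 0.241 by limma, 0.207 to 0.921 over the alternatives). CON_P had both low and high libraries at this site, with 25%, 95.2%, 37.5% and 97.6%. SORCS3 (chr26:25757923), a sorting receptor of the sortilin family, was at 93.8%, 95.1%, 91.7% and 97.8% in MET_noP and 52.6%, 75%, 50% and 81.6% in CON_noP, next to a site 2 bp away with a range of 9.09 points. The adjacent positions chr8:111120050 and chr8:111120051 in EIPR1 were higher in MET_noP by 39.4 and 27.9 points, and chr27:37681156, without a gene, by 25.8 points.

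For the interaction, the sites with the lowest p after MCM2 were in IQSEC1 (chr22:58875108), an exchange factor for ARF GTPases, HPCAL1, ABCC6 (chr25:14517676), a membrane transporter, and ZMAT4 (chr27:35889453). IQSEC1 was at 80%, 57.1%, 76.9% and 27.8% in the CON_P libraries, 96.3%, 80%, 96.4% and 100% in those of CON_noP, 84.4%, 96.1%, 77.1% and 100% in MET_P and 50%, 90%, 75.8% and 68.9% in MET_noP. In IQSEC1 no CON_P library was above the lowest CON_noP library, and those of MET_P and MET_noP overlapped. The difference of the outcome effects, RPM minus control diet, was 5.98 ± 1.55 (SE) M units with an adjusted p by limma of 0.909. In the F test FHDC1 and HPCAL1 were followed by chr3:8528452, chr24:1165393 and MGMT (chr26:49088410), a DNA repair enzyme, where MET_noP at 97.4%, 77.8%, 72.4% and 82.4% lay above MET_P at 57.9%, 48.3%, 56.2% and 46.9%.

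The gene lists of endometrial and epigenetic function held 7 variable sites, and the shares below stand beside 0.591% of all autosomal sites. Imprinted genes, in which only the allele of 1 parent is active, held 2 of 964 sites (0.207%). In IGF2R, the receptor that clears IGF2, chr9:96260518 was at 18.2% in S19 of MET_P and from 61.1% to 100% in the other libraries. GRB10 (chr4:5200870), a growth-restraining adaptor, was at 96.1%, 32.3%, 60% and 25% in CON_P and 67.2%, 47.1%, 100% and 65.1% in MET_noP. The methionine cycle and DNA methylation list held 1 of 151 sites (0.662%), in the demethylating enzyme gene TET3 (chr11:10651598), with 78.9%, 64%, 69.2% and 100% in CON_P and 73.3%, 50%, 76.5% and 29.4% in CON_noP. Its MET_P libraries lay from 61.9% to 89.5% and its MET_noP libraries from 58.1% to 84.6%.

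Of the steroid and prostaglandin list, 4 of 559 sites (0.716%) were variable. They were in WNT7A, a Wnt ligand of the uterine epithelium, IGF1R, PTGES, which makes prostaglandin E, and PTGIS, which makes prostacyclin. WNT7A (chr22:58191811) was at 11.3%, 51.9%, 57.1% and 9.09% in the CON_P libraries, 23.1%, 46.2%, 44% and 26.5% in those of CON_noP, 21.9%, 60%, 6.67% and 36.4% in MET_P and 16%, 70%, 25% and 90.9% in MET_noP, with no order of the groups. At the PTGES site (chr11:100122540) CON_P was at 86.7%, 69.6%, 78.6% and 47.8% and MET_P at 47.5%, 39.7%, 39.3% and 63.1%, and the groups overlapped. PTGIS (chr13:77634936) ranged from 18.6% in S14 of CON_P to 90.3% in S27 of MET_P and moved with its nearest neighbour 24 bp away (r = 0.92). IGF1R (chr21:7862133) ranged from 17.9% to 96.4% beside a neighbour with a range of 17.6 points. Antigen presentation genes had none among 40 sites.

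Marker genes of the cells that a brush can collect were looked at in the same way. Leukocyte genes held 2 of 345 sites (0.580%), in the T cell kinase gene ZAP70 and the B cell receptor gene CD79A, stromal genes 1 of 151 (0.662%), in COL6A2, epithelial genes 0 of 126 and germ cell and sperm genes 0 of 96, beside 0.591% of all autosomal sites. ZAP70 (chr11:3061077) ranged from 11.1% in S30 of CON_P to 94.3% in S31 of MET_P. CD79A (chr18:51348075) ranged from 26.7% in S25 of MET_noP to 100% in S15 of MET_P. The mean level over all sites of the 16 measured epithelial genes was 27.1% to 44.4% in the CON_P libraries, 29.1% to 36.4% in those of CON_noP, 28% to 34.5% in MET_P and 25.8% to 41.9% in MET_noP. For the 24 measured leukocyte genes it was 44.1% to 53.7%, 45.8% to 48.3%, 47.8% to 50.6% and 43.4% to 50.9% in the same order. Levels of marker genes do not give the share of a cell type, and the part of the cell mix in the spread of the variable sites was not tested.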

How the data were processed

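RRBS libraries had been made from MspI-digested, bisulfite-treated DNA. Per the labels and the study's methods, the authors cleaned reads in Trim Galore, used Bismark with bowtie2 for alignment to ARS-UCD1.2, joined the runs belonging to a library in SAMtools and let SeqMonk compute the methylation of every position with at least 10 counts, a depth at which 1 read is worth 10 percentage points. The table deposited by the authors gives methylation in percent, without normalization between libraries and without counts, so depth above that minimum is unknown. Tables of read positions, genes and levels were used as deposited, except that a gene symbol turned into a date by a spreadsheet was restored to SEPT9 by its gene identifier. Columns were assigned to groups by the header. Library numbers do not give the replicate numbers of the labels.

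Range, widest gap between ranked libraries, neighbours within 100 bp, clusters and the share of the sum of squares between groups were computed on the percentages in Python 3.11.15 with numpy 2.4.6 and pandas 2.3.3, and figures were drawn with matplotlib 3.10.9. M values with an offset of 1 percentage point were tested in R 4.3.3 with limma 3.58.1 (no trend), 8 libraries per comparison and all 16 for the interaction and the F test, with p-values adjusted over 199395 sites (Benjamini-Hochberg) and called under 0.05. The test was checked on simulated data and made calls at this number of libraries. The simulated differences, in M units, were larger than those of any site named by a pair comparison. The check therefore does not show whether differences of the size seen here would be called. Each library was 1 replicate, nothing in the labels ties a library to a cow, and p-values measure only the spread between libraries. The logistic regression of the study needs counts and was not run.

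Variable sites, gene lists and tests were chosen with earlier results of these data known. Named are the 10 sites of widest range, the 8 clusters and 10 genes with the most variable sites, up to 5 sites of lowest p per test (without overlap of the libraries for pairs), sites of widest range with 2 co-varying neighbours, sites at the threshold and up to 4 sites per gene list. Sites with the widest steps or gaps, distant pairs and the last 4 clusters were chosen after their values were seen. Alternatives changed the range, the gap, the distance, the scale, the offset, the moderation, the filter on levels, the centring and the model, and left out each library in turn. A tolerance of 0.0001 on the range and sets of consecutive library numbers as a block were added after the data were seen. Coordinates are those of the deposited table (ARS-UCD1.2). Exons, introns, repeats and sequences were not analysed here.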

Additional observations from a re-analysis of the deposited data

Results flagged for a closer look

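Among 68 sets of 4 libraries (5 measures per library and the means of 12 clusters), 4 held a library that lay far from the other 3 of its group, by the ratio of its gap to the range of the group. Chance gives this in about 1 of 20 sets. S16 of CON_noP was the lowest library at 165 variable sites and the other 3 libraries of its group at 49, 39 and 40 (ratio 0.921). In the FHDC1 cluster S16 was at 21.7% and the other CON_noP libraries were at 51.8%, 56.9% and 55.1% (ratio 0.855). In the ATP8B1 cluster S12 was at 72.4% and the other CON_noP libraries were at 29.5%, 33.7% and 31.8% (ratio 0.902). In the ZNF703 cluster S31 was at 39.4% and the other MET_P libraries were at 18.3%, 16.7% and 16.8% (ratio 0.927). No variable site passed the test of the interaction of diet and outcome by limma, where 108 had an unadjusted p under 0.05.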

How the results depend on the processing

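No variable site passed the threshold in any of 104 alternative fits of the 6 tests by limma. The counts of sites followed the rule. With a range of 60 points or more there were 4222 sites, of which 200 were step-like, 2150 had another such site within 100 bp and 147 had over 50% of the sum of squares between groups. With 80 points or more these counts were 289, 20, 42 and 9. As shares of the sites, 4.74%, 5.64% and 6.92% were step-like at 60, 70 and 80 points, 50.9%, 35.0% and 14.5% had another such site within 100 bp, and 3.48%, 2.95% and 3.11% had over 50% between groups. Fewer sites pass at a wider range, so the fall in the share with another such site is in part set by the rule. The second highest minus the second lowest value gave 86 sites. A step of 40% or 60% of the range gave 193 or 18 step-like sites. Without 1 library there were 957 (without S26) to 1086 sites, 57 to 81 step-like sites, 295 to 380 with another within 100 bp and 31 to 69 with over 50% between groups, the last highest without S30, and also over 1.5 times the main count of 33 without S12, S31, S17 or S25. With fewer libraries in a group that share has fewer degrees of freedom. Averaged strands, distances of 50 or 200 bp, leaving out positions 1 bp away, M values for the spread and the tolerance at the threshold kept the counts within 1.5 times. At an unadjusted p under 0.05 the 56 sites of CON_P against CON_noP became 89 with means of 10% to 90%, 87 with library sets as a block and 104 without S30, the 103 of MET_P against MET_noP 68 with an offset of 0.1 and 175 without S17, the 125 of MET_P against CON_P 77 with that offset and 207 without S30, and the 116 of the F test 61 with that offset and 192 with trend. No site named by a test of a pair or of the interaction changed its direction. No paired analysis was possible because the columns do not carry the replicate numbers of the labels, and the sets of consecutive library numbers above are not those numbers. Unknown depth limits every single value.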

Other observations

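Variable sites far apart on a chromosome were in a few cases alike over all libraries. These pairs were chosen after the values were seen, and of all pairs between chromosomes 0.201% also reached an r of 0.8. Of the 404 pairs at 10 to 100 kb 9 did, and of the 2747 pairs at 100 kb to 1 Mb 11 did (0.400%). The site in CEP72, a centrosomal protein, at chr20:71517521 and the site in ENSBTAG00000026527 at chr20:71682542 lie 165021 bp apart and had an r of 0.98. CEP72 was at 22.6%, 100%, 92.3% and 100% in CON_P and 100%, 100%, 97.2% and 48.9% in MET_P, and the other site at 20.6%, 100%, 96.4% and 100% and 97.2%, 98.6%, 97.8% and 44%. S14 and S31 were the low libraries at both, and the nearest sites, 4 and 10 bp away, had ranges of 11.1 and 8.89 points. At the sites of CEP72 and ENSBTAG00000026527, r with the nearest site was 0.0076 and 0.061. In DENND3, which acts in membrane traffic, chr14:2739443 and chr14:2762419 lie 22976 bp apart with an r of 0.97. S30, S19 and S25 were low at both sites of DENND3, at 13.6%, 19.2% and 5.56% at the first and 32%, 51.7% and 26.1% at the other. The nearest site of the first, 5 bp away, had a range of 18.2 points, and that of the other, 1 bp away, was itself variable (r = 0.94).

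In EIPR1, chr8:111099512 and chr8:111120051 lie 20539 bp apart with an r of 0.96, and the latter also moved with the position 1 bp away (r = 0.94). On chromosome 3 the sites in HDLBP (chr3:120438250), BOK (chr3:120654042) and D2HGDH (chr3:120785373) lay in a stretch of 347123 bp, and their r was 0.88 for the outer pair and 0.95 for BOK and D2HGDH. S27 of MET_P was the lowest library at all 3, at 28.6%, 27.3% and 23.8%. All pairs use the same libraries, and the cause of the likeness was not tested.

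On chromosome X, which the rule leaves out, 17 of 10346 sites (0.164%) had a range of 70 points or more, and of the 13 mitochondrial sites none had.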
